A study of Sus scrofa with 4 samples.

Results

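The genes of 10 plasma and lipid transport proteins were examined in untransplanted pig kidney and in pig kidney transplanted into non-human primates: 6 members encode carriers of fat or lipid (APOD, APOM, APOA1, APOE, APOB and FABP1) and 4 encode liver-type plasma proteins (ALB, AFP, TTR and RBP4). All 10 were found by symbol among the 26466 gene symbols of the count files, and 8 reached 10 counts in at least 1 library. ALB and FABP1 did not. The members were chosen from counts and ratios of these same 4 libraries, so their values are given as descriptions and no test is made on them.

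RNA sequencing had been done on 4 kidney libraries, 1 in each of 4 groups, so no pair of groups has a replicate check. All pigs lacked the galactosyltransferase GalT, the enzyme behind the alpha-Gal xenoantigen, and had the human transgenes CD39 and CD55. The genotype GalT-/-;hCD39;hCD55 is called CD39/CD55 here. The genotype GalT-/-;hCD39;hCD46;hCD55;TBM, which also carried human CD46, and thrombomodulin (TBM), is called CD39/CD46/CD55/TBM. Each genotype gave 1 untransplanted kidney and 1 transplanted kidney, and the graft had been in place for 4 weeks in CD39/CD55 but for 6 weeks in CD39/CD46/CD55/TBM. Between the transplanted kidneys, genotype cannot be told apart from time, recipient or preparation batch. The age of the animals, the promoters of the transgenes and the number of animals behind a library are nowhere stated in the sources used here. According to its design text, the series compared these genotypes to select one that eases rejection.

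Apolipoproteins are the protein part of lipoproteins: APOB forms the scaffold of the large particles that carry triglyceride and cholesterol, APOA1 that of high-density lipoprotein, and APOE is a ligand for uptake by receptors. Albumin, alpha-fetoprotein, transthyretin and retinol-binding protein are secreted mainly by the liver and carry fatty acids, thyroid hormone and vitamin A in blood. The kidney meets these proteins mostly by filtration: smaller ones pass the glomerulus and are taken up again in the proximal tubule by the receptors megalin and cubilin. A transcript counted here shows RNA in the kidney sample, not protein filtered from plasma.

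Total counts ran from 10346863 to 14092905 per library. Levels are given as scaled CPM, the usual depth-normalised count, with the library total corrected by a TMM factor. On that scale a count of 0 allows up to 3 counts, which is 0.219 to 0.29 scaled CPM. Ribosomal RNA loci took 10.8% and 12.6% of counts in the untransplanted kidneys and 22.4% and 18.9% in the transplanted ones. The libraries carried kidney markers. Summed over 19 proximal tubule genes, the level was 14407 and 14774 scaled CPM in the untransplanted CD39/CD55 and CD39/CD46/CD55/TBM kidneys, and 7155 and 3543 in the transplanted ones. In edgeR's quasi-likelihood test of transplanted against untransplanted kidney over both genotypes (2 libraries against 2, Benjamini-Hochberg adjustment), 14 of those 19 genes fell and none rose, by DESeq2 or at an unadjusted p under 0.05 either. Without the untransplanted CD39/CD55 library 9 fell. Fewer tubule cells and less RNA per cell cannot be told apart in such bulk samples.

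Hepatocyte markers were examined because most members are best known from liver. Of 37 hepatocyte markers in the files, the liver enzyme gene TDO2, the protease inhibitor gene SERPINA1 and the iron hormone gene HAMP had no count in any library. Whether their reads were missed in mapping or counting was not tested. The markers APOA2, CYP2E1 and CPS1 reached at most 1, 2 and 8 counts. The summed level of the list was 1779 to 2392 scaled CPM in untransplanted and 746 to 1361 in transplanted kidney. Most of the counts in that sum were at CYP2C33, whose reads could be shared with other members of the CYP2C family, and KNG1, which encodes kininogen. Without CYP2C33 the sum was 1065 untransplanted against 896 transplanted in CD39/CD55, and 871 against 507 in CD39/CD46/CD55/TBM. The ranges of untransplanted and transplanted kidneys then overlapped. In the same test 2 of 23 hepatocyte markers rose, HP and C9, and 4 fell, with 8 falling without the transplanted CD39/CD55 library and 2 without the transplanted CD39/CD46/CD55/TBM library or under scaling by total counts.

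**Figure D1:**
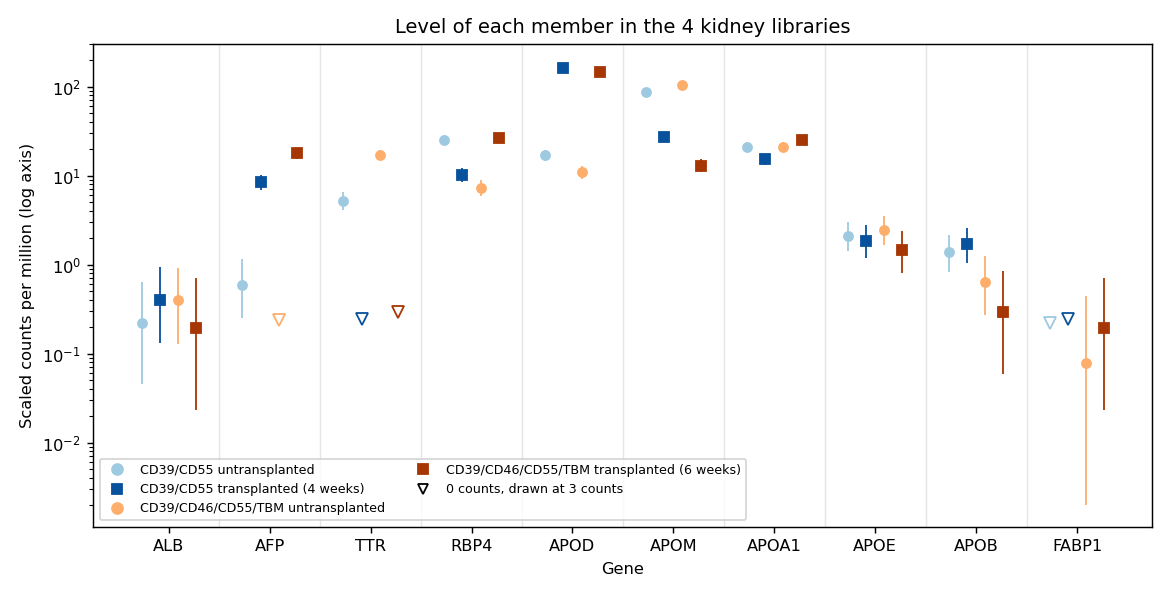
Level of each member in scaled CPM on a log axis, 1 point per library, with exact 95% Poisson intervals that cover counting error only; open triangles mark 0 counts, drawn at 3 counts. APOD and AFP are higher in both transplanted kidneys, TTR and APOM lower, and RBP4 has its high and low values crossed between the genotypes; levels are comparable within a gene, not between genes.

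Between transplanted and untransplanted kidney, members went both ways. The rule for calling a gene higher or lower was a ratio of scaled counts of at least 2-fold with an exact 95% counting interval that left out 1. In CD39/CD55, 2 of 10 members were called higher (AFP and APOD) and 3 lower (TTR, RBP4 and APOM). Among all 18168 genes kept, 13.2% were called higher and 13.7% lower in that pair. In CD39/CD46/CD55/TBM, 3 were called higher (AFP, RBP4 and APOD) and 2 lower (TTR and APOM), beside 15.9% and 16.3% of all genes. The members were chosen with these ratios known, so nothing is read from the counts.

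**Figure D2:**
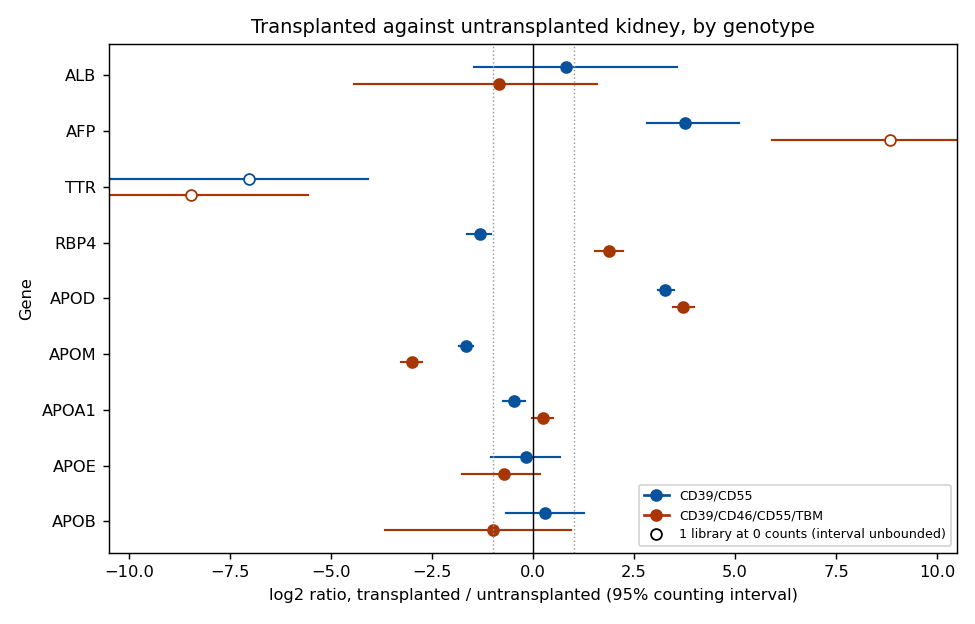
The log2 ratio of transplanted to untransplanted kidney for 9 members, with exact 95% counting intervals, by genotype; dotted lines mark 2-fold and open points mark a pair with 1 library at 0 counts. AFP, APOD, TTR and APOM lie on the same side of 0 in both genotypes, and RBP4 lies on opposite sides. FABP1 is left out because both CD39/CD55 libraries had 0 counts.

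The albumin family showed 1 member with a large difference and 1 near the floor. ALB encodes albumin, the main carrier protein of plasma (chromosome 8, 69643427 to 69663152, Sscrofa11.1). ALB counts were 3 untransplanted against 5 transplanted in CD39/CD55, while CD39/CD46/CD55/TBM gave 5 against 2. The counting interval of every ratio between them holds 1, and no difference was detectable at this depth.

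AFP encodes alpha-fetoprotein, the albumin-like carrier of fetal plasma, which is normally low in adult tissue (chromosome 8, 69677690 to 69698864). AFP counts were 8 untransplanted against 104 transplanted in CD39/CD55, while CD39/CD46/CD55/TBM gave 0 against 185. Both transplanted kidneys were thus above both untransplanted ones, at 8.41 and 17.9 scaled CPM. The log2 ratio in CD39/CD55 was 3.77 (95% counting interval 2.82 to 5.10). In CD39/CD46/CD55/TBM the gene was at least 75.4-fold higher after transplantation, with the untransplanted library set at the floor of 3 counts and the other count taken as exact. The exact interval of that log2 ratio starts at 5.92. Between the genotypes, AFP in the transplanted pair was higher in CD39/CD46/CD55/TBM by a log2 ratio of 1.09 (0.73 to 1.45), which was 0.99 when libraries were scaled by total counts and then was not called. In the untransplanted pair it was lower in CD39/CD46/CD55/TBM, on 0 against 8 counts, with an exact interval of the log2 ratio that ends at -0.65.

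AFP and ALB are neighbours, 14538 bases apart, and AFM, which encodes the related carrier afamin, lies 7959 bases from AFP on the other side. AFM had 1 count in the transplanted CD39/CD55 kidney and 0 in the other 3 libraries. Higher AFP counts thus stood beside counts of at most 5 on both neighbours of the same family. Hepatocyte markers beside AFP went both ways: of 23 kept, 6 were called higher and 6 lower after transplantation in CD39/CD55, and 6 higher and 12 lower in CD39/CD46/CD55/TBM. Among them the haptoglobin gene HP had 18 untransplanted against 58 transplanted counts in CD39/CD55, and 9 against 554 in CD39/CD46/CD55/TBM, while TDO2, SERPINA1 and HAMP were at 0 in all 4 libraries. Their part in the AFP values was not tested. Of the other genes of the family, the vitamin D carrier gene GC fell (145 untransplanted against 7 transplanted counts in CD39/CD55, 93 against 5 in CD39/CD46/CD55/TBM, log2 fold change -4.06, SE 0.61, edgeR quasi-likelihood adjusted p = 0.00441).

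TTR encodes transthyretin, the plasma carrier of thyroxine, which also binds retinol-binding protein and so keeps it from being filtered (chromosome 6, 115496338 to 115503974). TTR counts were 72 untransplanted against 0 transplanted in CD39/CD55, while CD39/CD46/CD55/TBM gave 215 against 0. No read was thus counted at TTR in either transplanted library. Against the floor of 3 counts, TTR was at least 21.6-fold lower after transplantation in CD39/CD55 and at least 58.6-fold lower in CD39/CD46/CD55/TBM, the other counts taken as exact. The exact intervals of these log2 ratios end at -4.10 and -5.56. Between the untransplanted kidneys it was higher in CD39/CD46/CD55/TBM by a log2 ratio of 1.69 (1.30 to 2.10). The flanking genes had counts in all 4 libraries: the desmosome gene DSG2 had 161, 213, 147 and 292, in the order untransplanted and transplanted CD39/CD55, then untransplanted and transplanted CD39/CD46/CD55/TBM, and the glycosyltransferase gene B4GALT6 had 3, 12, 10 and 10.

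RBP4 encodes the plasma retinol-binding protein, a lipocalin (chromosome 14, 105037360 to 105044552). RBP4 counts were 349 untransplanted against 125 transplanted in CD39/CD55, while CD39/CD46/CD55/TBM gave 92 against 276. The high and low values therefore crossed: the untransplanted kidney was the higher one in CD39/CD55 and the transplanted kidney in CD39/CD46/CD55/TBM. The log2 ratio of transplanted to untransplanted was -1.33 (-1.64 to -1.03) in CD39/CD55 and 1.87 (1.53 to 2.23) in CD39/CD46/CD55/TBM. The difference between these log2 ratios was 3.20, with a 95% Wald counting interval of 2.75 to 3.65. With 1 library per group this difference has no test.

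The whole annotated span of RBP4 lies inside that of PDE6C (chromosome 14, 105010974 to 105122628), which encodes a phosphodiesterase of cone photoreceptors. PDE6C had 372, 196, 138 and 359 counts, in the order untransplanted and transplanted CD39/CD55, then untransplanted and transplanted CD39/CD46/CD55/TBM. These run parallel to RBP4, whose count was 93.8%, 63.8%, 66.7% and 76.9% of that of PDE6C in the same order. The remaining 23, 71, 46 and 83 counts are all that PDE6C held beyond the number at RBP4. Whether the same reads were counted at both genes, or whether reads of 1 gene were assigned to the other, was not tested, since the sources used here give neither the counting rule nor its use of strand. RBP4 values are uncertain for that reason.

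**Figure D3:**
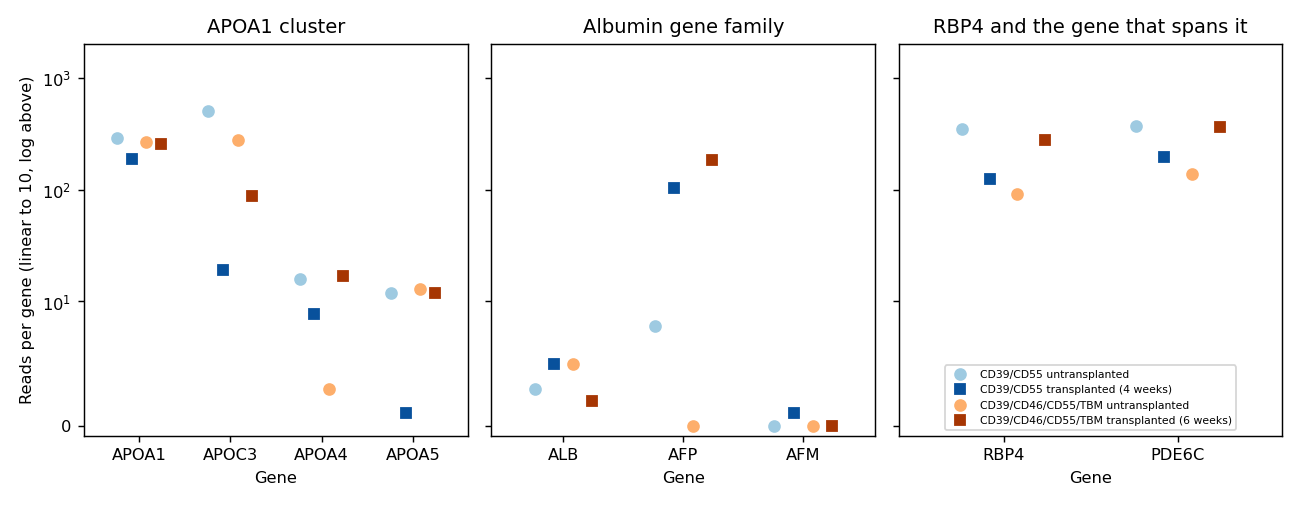
Reads per gene in each library for members and neighbouring genes, on an axis that is linear up to 10 counts and logarithmic above. In the APOA1 cluster APOC3 is lower in both transplanted kidneys while APOA1 spans 188 to 288 counts; of ALB, AFP and AFM, AFP alone exceeds 10 counts; RBP4 and PDE6C follow the same order of libraries.

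APOD and APOM, like RBP4, are lipocalins, and they differed in opposite directions. APOD is a small lipid carrier made by many peripheral tissues, fibroblasts and glia among them, and is not a typical liver product (chromosome 13, 132514546 to 132562594). APOD counts were 231 untransplanted against 2020 transplanted in CD39/CD55, while CD39/CD46/CD55/TBM gave 139 against 1503. Every transplanted value lies above every untransplanted one, at 163 and 145 against 16.8 and 11.0 scaled CPM. The log2 ratio was 3.28 (3.08 to 3.48) in CD39/CD55 and 3.72 (3.47 to 3.99) in CD39/CD46/CD55/TBM. Of all genes kept, 1.21% and 1.01% had a ratio as high or higher in these pairs. The difference between the genotypes in this ratio was 0.44 (0.13 to 0.76), under the 2-fold rule. The 2 nearest genes, PPP1R2 and BDH1, had 551 to 816 and 215 to 767 counts.

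Fibroblast and pericyte markers were examined beside APOD and went both ways. By the 2-fold rule 2 were called higher and 8 lower in CD39/CD55, and 3 higher and 5 lower in CD39/CD46/CD55/TBM. Their summed level was 590 to 1045 scaled CPM in untransplanted and 385 to 634 in transplanted kidney. Of 15 markers kept, 1 rose, the matrix gene POSTN, and 1 fell in the quasi-likelihood test. POSTN did not pass without the untransplanted CD39/CD55 library, and 6 fell without the transplanted one. None of the 16 listed genes was at 0 in all libraries. Their part in the APOD values was not tested.

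APOM is carried on high-density lipoprotein, where it binds sphingosine-1-phosphate, and is made by hepatocytes and proximal tubule cells (chromosome 7, 23768974 to 23773324). APOM counts were 1192 untransplanted against 339 transplanted in CD39/CD55, while CD39/CD46/CD55/TBM gave 1324 against 134. Both transplanted kidneys lay below both untransplanted ones. The log2 ratio was -1.66 (-1.84 to -1.49) in CD39/CD55 and -3.01 (-3.28 to -2.76) in CD39/CD46/CD55/TBM. The second was lower than the first by 1.35 on the log2 scale (difference -1.35, Wald counting interval -1.66 to -1.04). The untransplanted kidneys were close (log2 ratio 0.27, 0.16 to 0.38), while in the transplanted pair CD39/CD46/CD55/TBM was lower than CD39/CD55 (log2 ratio -1.08, -1.38 to -0.79).

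Proximal tubule markers were lower beside APOM. Their median log2 ratio was -2.57 in CD39/CD55, with 16 of 19 called lower, and -2.54 in CD39/CD46/CD55/TBM, with 18 of 19 called lower. The difference of these ratios between the genotypes had a median of -0.34 over the 19 markers and ran from -4.03 to 1.97, below 0 for 15 and above 0 for 4. The part of tubule RNA in the APOM values was not tested. The neighbours BAG6 and C7H6orf47, 315 and 573 bases away, had 251 to 536 and 45 to 201 counts.

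The exchangeable apolipoproteins APOA1 and APOE were not called between transplanted and untransplanted kidney in either genotype. APOA1 encodes the main protein of high-density lipoprotein (chromosome 9, 44216481 to 44218360). APOA1 counts were 288 untransplanted against 188 transplanted in CD39/CD55, while CD39/CD46/CD55/TBM gave 267 against 257. The untransplanted kidneys were almost equal, at 21.0 and 21.1 scaled CPM. The log2 ratio was -0.46 (-0.74 to -0.20) in CD39/CD55 and 0.24 (-0.02 to 0.49) in CD39/CD46/CD55/TBM, both under 2-fold. Between the transplanted kidneys the log2 ratio was 0.71 (0.43 to 0.99), CD39/CD46/CD55/TBM being the higher.

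APOA1 stands in a cluster with APOC3, APOA4 and APOA5 within 50 kb. APOC3 encodes an inhibitor of triglyceride clearance, 2943 bases from APOA1. It fell (504 untransplanted against 19 transplanted counts in CD39/CD55, 275 against 88 in CD39/CD46/CD55/TBM, log2 fold change -2.55, SE 0.66, edgeR quasi-likelihood adjusted p = 0.0489). This gene did not pass when libraries were scaled by total counts, and its adjusted p ran from 4.44e-05 to 0.0575 over 11 alternatives. APOA4 had 3 to 17 counts and APOA5 had 1 to 13. The members of this cluster thus did not share 1 direction or size, and their difference from each other was not tested.

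APOE encodes the receptor ligand of remnant lipoproteins and is made by hepatocytes, macrophages and other cells (chromosome 6, 51373113 to 51375333). APOE counts were 29 untransplanted against 23 transplanted in CD39/CD55, while CD39/CD46/CD55/TBM gave 31 against 15. The log2 ratios were -0.18 (-1.04 to 0.66) and -0.73 (-1.75 to 0.18), and both intervals hold 0. The neighbours TOMM40 and NECTIN2 had 282 to 452 and 440 to 814 counts, while the cluster partner APOC4 had none in any library and APOC2, the activator of lipoprotein lipase, had 12, 0, 28 and 3.

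Of 14 macrophage markers kept, examined beside APOE, 7 fell and 1 rose in the same quasi-likelihood test. That 1 gene was GPNMB, with 1049 untransplanted against 3290 transplanted counts in CD39/CD55, and 731 against 5120 in CD39/CD46/CD55/TBM. It did not pass, and no gene of the list rose, when the untransplanted library of CD39/CD46/CD55/TBM was left out. The summed level of the list was 154 to 177 scaled CPM in untransplanted and 281 to 519 in transplanted kidney. Without GPNMB it was 95.80 to 100.5 and 15.03 to 24.07, the opposite direction. C1QC, a complement gene of macrophages, was at 0 in both transplanted kidneys. Counts are at pig genes, and the sources used here do not say what was done with primate reads. Macrophages of the recipient may therefore be missed, and the list does not show how many macrophages a graft held. What macrophages contributed to APOE was not tested.

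APOB encodes the structural protein of chylomicrons and of very-low-density and low-density lipoprotein (chromosome 3, 117250096 to 117316200). APOB counts were 19 untransplanted against 21 transplanted in CD39/CD55, while CD39/CD46/CD55/TBM gave 8 against 3. Both log2 ratios of transplanted to untransplanted had intervals that hold 0, at 0.29 (-0.67 to 1.27) and -0.99 (-3.67 to 0.93). In the transplanted pair APOB was lower in CD39/CD46/CD55/TBM, with a log2 ratio of -2.36 (-4.94 to -0.81) that rests on 3 against 21 counts.

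FABP1 encodes the liver-type fatty acid-binding protein, a carrier inside cells rather than in plasma, known in human kidney as a proximal tubule protein (chromosome 3, 57850511 to 57854966). FABP1 counts were 0 untransplanted against 0 transplanted in CD39/CD55, while CD39/CD46/CD55/TBM gave 1 against 2. No difference was detectable at this depth. Among its relatives FABP3, the heart-type protein gene, named after its values were seen, had 422 untransplanted against 320 transplanted counts in CD39/CD55, and 2006 against 178 in CD39/CD46/CD55/TBM (edgeR quasi-likelihood adjusted p = 0.0807 over both genotypes).

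The genotypes were then compared within each state. Between the untransplanted kidneys, 1 of 10 members was called higher in CD39/CD46/CD55/TBM (TTR) and 2 lower (AFP and RBP4), beside 8.17% and 7.88% of all genes. Between the transplanted kidneys, 2 were called higher (AFP and RBP4) and 2 lower (APOM and APOB), beside 11.0% and 11.0% of all genes. For the difference of the transplantation ratios, 2 members were called higher in CD39/CD46/CD55/TBM (AFP and RBP4) and 1 lower (APOM), beside 10.4% and 11.5%. With its 0 count set at the floor, the difference for AFP was 2.39 on the log2 scale. The members were picked with these values known, and nothing is read from the counts.

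Among related genes not used to choose the members, 162 of 8 overlapping lists were kept and tested over all 18168 genes. With transplantation, 14 of the 162 rose and 17 fell, where 1.24% of all genes rose and 2.71% fell. The lists were chosen with earlier results of these data known, so no enrichment is read from these counts. The median log2 fold change over all genes was 0.03. In the comparison of the genotypes over both states no gene of the lists passed edgeR's quasi-likelihood test, where 0% of all genes did. At an unadjusted p under 0.05, 5 list genes were lower in CD39/CD46/CD55/TBM and 0 higher, and neither DESeq2 nor limma voom called any. With state as a block in the fit, 2 were higher and 4 lower. In what follows, list genes have their counts written as untransplanted to transplanted, CD39/CD55 first, and 4 counts in a row keep that order.

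**Figure D4:**
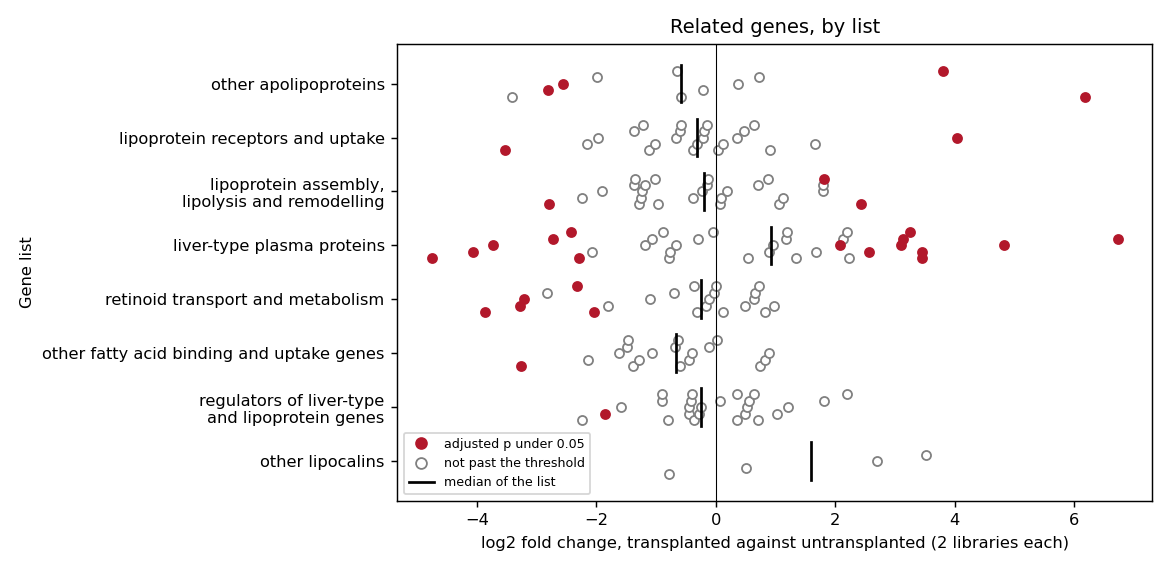
The log2 fold change of transplanted against untransplanted kidney (2 libraries each) for the kept genes of 8 lists, 1 point per gene; filled points have an adjusted p under 0.05 and black lines are list medians. Liver-type plasma protein genes spread from PROC at -4.76 to FGA at 6.74, the latter on 0 and 1 untransplanted counts. Every filled point of the retinoid list lies below 0.

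Genes of other liver-type plasma proteins went both ways: of 34 kept of 46, 9 rose and 6 fell, with a median log2 fold change of 0.92. Those with the smallest p among the risen were the fibrinogen chain genes FGB, FGA and FGG. FGA had 0 to 52 and 1 to 63 counts, so the size of its fold change rests on untransplanted counts near the floor. FGB had 122 to 1535 and 117 to 765 counts (log2 fold change 3.45, SE 0.46, edgeR adjusted p = 0.00234). The others that rose were SERPINA3-2, whose family holds near-identical copies that may share reads, and C3, HP, CP, C9 and F12. HP and F12 did not pass by limma voom or without the transplanted CD39/CD46/CD55/TBM library, and CP, C9 and F12 did not pass without the untransplanted CD39/CD55 one. Among those that fell, the anticoagulant genes PROC and SERPINC1 and the albumin relative GC led. SERPINC1, which encodes antithrombin, fell, at 164 to 9 and 134 to 10 counts (log2 fold change -3.73, SE 0.56, edgeR adjusted p = 0.00441). ITIH1, F9 and TF fell as well, though TF did not pass under scaling by total counts, nor TF and F9 without the transplanted CD39/CD46/CD55/TBM library. CP and ITIH1 did not pass when the untransplanted library of CD39/CD46/CD55/TBM was left out. Without the transplanted CD39/CD46/CD55/TBM library 4 of the list fell. This list holds genes already seen to change in these libraries, so its direction is not independent evidence. KNG1, the most abundant gene of this list that did not pass, had 4210, 4132, 4304 and 3001 counts (adjusted p = 0.962).

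Among retinoid genes, which act with RBP4, those past the threshold were all lower, where 1.24% of all genes rose and 2.71% fell. By the 2-fold rule the list went both ways, with 1 gene called higher and 8 lower in CD39/CD55. In CD39/CD46/CD55/TBM 2 were called higher and 9 lower. Of 22 kept, 5 fell and none rose (also none by DESeq2, limma voom or at an unadjusted p under 0.05), with a list median of -0.24. STRA6, the membrane receptor of retinol-binding protein, fell, at 2545 to 186 and 1316 to 167 counts (log2 fold change -3.21, SE 0.47, edgeR adjusted p = 0.00389). BCO1, which cleaves beta-carotene to retinal, fell, at 793 to 77 and 883 to 26 counts (log2 fold change -3.86, SE 0.52, edgeR adjusted p = 0.00257). RDH11, RETSAT and the cellular retinol-binding protein gene RBP5 were the other 3, of which RETSAT and RBP5 did not pass without the untransplanted CD39/CD55 library. Without the transplanted CD39/CD55 library 7 fell and 1 rose. The retinal dehydrogenase gene ALDH1A1, the most abundant that did not pass, had 15387, 10309, 8955 and 6066 counts (adjusted p = 0.725). In CD39/CD46/CD55/TBM, with 1 library per group, STRA6 was lower and RBP4 higher after transplantation. RBP4 values are uncertain, as stated above, and PDE6C, whose span holds RBP4, was also called higher in that pair (log2 ratio 1.67).

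Lipoprotein receptors had 1 gene up and 1 down of 23 kept, with a median of -0.31. LRP8, the APOE receptor also called ApoER2, rose, at 18 to 138 and 22 to 405 counts (log2 fold change 4.03, SE 0.64, edgeR adjusted p = 0.00549). LRP2, which encodes megalin, fell, at 23515 to 2622 and 20999 to 831 counts (log2 fold change -3.53, SE 0.60, edgeR adjusted p = 0.00825). Without the transplanted CD39/CD55 library 2 genes rose and 4 fell, and 2 fell when the untransplanted library of CD39/CD46/CD55/TBM was left out. DAB2, an adaptor of megalin endocytosis and the most abundant gene that did not pass, had 12964, 8562, 14502 and 7256 counts (adjusted p = 0.53). CUBN encodes cubilin, the tubular receptor of APOA1 and albumin, and is named here after its values were seen. It had 14021 to 5619 and 11879 to 3981 counts (edgeR adjusted p = 0.176).

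Of 26 kept genes of lipoprotein assembly, lipolysis and remodelling, 2 rose and 1 fell, with a median of -0.19. The 2 that rose are the cholesterol exporters that load APOA1 and high-density lipoprotein. ABCA1 had 485 to 1353 and 628 to 1965 counts (log2 fold change 1.82, SE 0.46, edgeR adjusted p = 0.0444), and ABCG1 had 27 to 120 and 28 to 134 (log2 fold change 2.43, SE 0.51, edgeR adjusted p = 0.0207). ABCA1 did not pass without the untransplanted CD39/CD55, the untransplanted CD39/CD46/CD55/TBM or the transplanted CD39/CD46/CD55/TBM library, and its adjusted p ran from 0.000493 to 0.292 over the alternatives. ABCG1 and TM6SF2, a gene of lipoprotein lipidation that fell, at 219 to 24 and 107 to 16 counts, did not pass without the untransplanted CD39/CD55 library (adjusted p = 0.0612 and 0.0717), whereas without the transplanted CD39/CD55 library 7 genes of the list fell. P4HB, the subunit shared with the microsomal triglyceride transfer protein, had 4689, 4130, 2135 and 2552 counts (adjusted p = 0.862).

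Other apolipoprotein genes split evenly: 2 of 11 kept rose and 2 fell, with a median of -0.58. SAA3, an acute phase apolipoprotein, rose, at 6 to 142 and 10 to 819 counts, as did CLU, also called apolipoprotein J, at 1314 to 5074 and 1025 to 21240. Besides APOC3, APOLD1, an endothelial gene of the apolipoprotein L group, fell, at 390 to 15 and 297 to 65 counts (log2 fold change -2.80, SE 0.63, edgeR adjusted p = 0.0281). APOOL, a mitochondrial protein gene, had 700, 492, 425 and 340 counts (adjusted p = 0.804).

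Few fatty acid carriers and regulators passed the test. Of 18 kept fatty acid binding and uptake genes, only SLC27A6, a fatty acid transport protein gene, fell, at 274 to 60 and 532 to 16 counts (log2 fold change -3.26, SE 0.60, edgeR adjusted p = 0.0119), and none rose by edgeR, DESeq2 or at an unadjusted p under 0.05. Without the transplanted CD39/CD55 library 5 fell, without the untransplanted one 3 and without the transplanted CD39/CD46/CD55/TBM library 2. GOT2, a mitochondrial transaminase also known as a plasma membrane fatty acid-binding protein, had 5884, 1729, 2253 and 813 counts (adjusted p = 0.143). Among 25 kept regulators, NR1I2, the pregnane X receptor, fell (log2 fold change -1.85, SE 0.47, edgeR adjusted p = 0.048), but not without the untransplanted CD39/CD55 or the transplanted CD39/CD46/CD55/TBM library or under scaling by total counts (up to 0.189). None of the regulators rose by edgeR (2 were higher at an unadjusted p under 0.05, and 1 by DESeq2). With genotype as a block 3 rose, and 1 rose without each library in turn except the untransplanted CD39/CD55 one. Without the transplanted CD39/CD55 library 3 fell. The AFP repressor ZBTB20 had 12287, 10723, 12215 and 11299 counts (adjusted p = 0.947). HNF4A, a regulator of many liver and tubule genes named after its values were seen, had 2860 to 3407 and 3303 to 819 counts (edgeR adjusted p = 0.725).

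Lipocalins other than the members were mostly near the floor. Of 12 in the files 4 were kept, and none passed by edgeR or limma voom, although 2 were higher at an unadjusted p under 0.05 and 1 by DESeq2. Leaving out either CD39/CD55 library, or scaling by total counts, gave 1 that rose. PTGDS, which encodes prostaglandin D synthase, had 148, 156, 128 and 177 counts (adjusted p = 0.551).

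**Figure D5:**
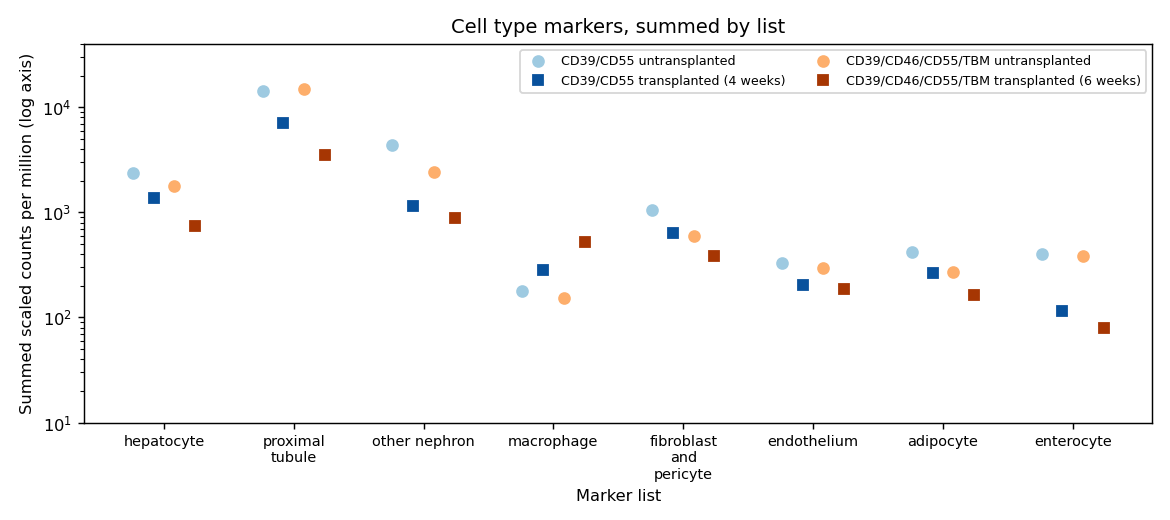
Summed level of each cell type marker list in scaled CPM on a log axis, 1 point per library. Proximal tubule markers are lower in both transplanted kidneys, hepatocyte markers lie between 746 and 2392, and the macrophage sum is higher in both transplanted kidneys through GPNMB, without which it is lower in both.

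Of 15 kept markers of other nephron segments 3 fell, of 10 endothelial markers 1 (TEK), of 8 adipocyte markers 1 (GPD1) and of 6 enterocyte markers 2 (VIL1 and ANPEP) in edgeR's test. No endothelial or adipocyte marker fell under scaling by total counts or without the untransplanted CD39/CD55 library, and no endothelial one fell with either kidney of CD39/CD46/CD55/TBM left out. Without 1 library 0 to 2 adipocyte markers fell, and 1 enterocyte marker fell when the untransplanted library of CD39/CD46/CD55/TBM was left out. The enterocyte list was examined because the intestine also makes APOA1 and APOB, and it does not show that enterocytes were present. Its summed level was 383 to 399 scaled CPM in untransplanted and 79.2 to 115 in transplanted kidney, and its defining marker CDX2 was at 0 in all libraries. Most of that sum was ANPEP, at 298 and 288 scaled CPM in the untransplanted CD39/CD55 and CD39/CD46/CD55/TBM kidneys. In the transplanted ones ANPEP was at 66.7 and 41.7. The part of any of these cells in the members' values was not tested.

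Genes with the pattern most like each member were found among 10514 named genes with at least 100 counts in a library, by the root mean square distance of log2 scaled CPM over the 4 libraries, each gene centred on its mean. APOM was closest to NIT2 and EHHADH (distance 0.050 and 0.055), APOA1 to NSF and CGNL1 (0.016 and 0.020), and APOD to GRM3 and RBM3 (0.23 and 0.27). RBP4 was closest to CLDN16 (0.14), a claudin gene with 231, 104, 78 and 215 counts, and next to PDE6C (0.22). TTR was closest to C1QC (0.56), whose counts were 152, 0, 158 and 0. The nearest gene to AFP was DEFB115 at 1.28, with 23, 409, 9 and 335 counts. Counts of 0 entered with the prior count of 0.5, so the distances of TTR and AFP depend on that prior. With 4 libraries, such likeness is a description of these samples.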

How the data were processed

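The authors deposited 1 table per library with unnormalized counts for each gene, as the whole numbers and unequal library totals show. RNA came from a phenol/chloroform extraction and went into a Lexogen Quant-Seq library kit, per the labels' protocols. Bowtie2, bedtools and the build Sscrofa11.1 were used, per the submitters' processing notes. Not given in the sources used here are versions, strand, and what was done with multi-mapping or primate reads. Whether counts are of 3' ends is not settled, so levels are compared within a gene. The gene called most abundant in a list is the one with the most counts, which need not have the highest level per length, and a list's sum is weighted towards such genes.

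Lines with the same symbol were summed, giving 26466 symbols, and the 18168 that reached 10 counts somewhere were kept. Ratios used TMM factors of edgeR 4.0.16 (0.975, 1.07, 0.957 and 1.00 for untransplanted and transplanted CD39/CD55 and CD39/CD46/CD55/TBM), a prior count of 0.5 and exact 95% Clopper-Pearson conditional binomial intervals. The difference of 2 log2 ratios had a Wald interval. Intervals and the floor of 3 counts cover counting error only, and no molecular identifiers are mentioned.

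The tests across all genes were quasi-likelihood tests in edgeR (2 residual degrees of freedom) with Benjamini-Hochberg adjustment and a threshold of 0.05. The SE is the absolute log2 fold change divided by the square root of the F statistic. Libraries on a side differ in genotype or state, so that spread is included, and p-values measure only the spread between these samples. "Rose" and "fell" are kept for genes past this threshold. On simulated data of the transplantation comparison (18168 genes), 70 of 100 genes changed 4-fold and 100 of 100 changed 16-fold were recovered, with 7 false calls. The changed genes were drawn from those with more counts, and all genes had the same dispersion. No genotype or time difference was simulated, so recovery in the real libraries, or of genes with few counts, is not shown.

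The members and the lists of related genes and markers were chosen with earlier results of these data known. Named genes are all members, up to 3 genes past the threshold in each direction by smallest p and the most abundant other gene of each list, and the 2 genes nearest in pattern. Genes outside that rule were chosen after their values were seen. Positions are from the RefSeq table of Sscrofa11.1, which held all 10 members. Alternatives were DESeq2 1.42.0 size factors and Wald test, limma 3.58.1 voom, scaling by total counts, leaving out ribosomal RNA loci and mitochondrial genes, a prior count of 2, no filter, the other factor as a block, and leaving out each library.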

Additional observations from a re-analysis of the deposited data

Results flagged for a closer look

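RBP4 was called in opposite directions in the genotypes, lower after transplantation in CD39/CD55 and higher in CD39/CD46/CD55/TBM, a difference of 3.20 on the log2 scale between the ratios. With 1 library per group this difference was not tested. PDE6C, whose span holds RBP4, differed in the same sense by 2.44 (95% Wald counting interval 2.06 to 2.82).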

How the results depend on the processing

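Of 200 recomputed member values (10 members, 5 comparisons, 4 alternatives), 199 stayed within their counting interval with the same call, and none reversed. The exception was AFP between the transplanted kidneys under scaling by total counts. That scaling moved the median log2 ratio of all genes by 0.14 in CD39/CD55. DESeq2 size factors moved it by -0.009 in that pair, and leaving out ribosomal RNA loci and mitochondrial genes by -0.0004. Such small shifts could hardly change a call, and none of the 4 alternatives covers the spread between kidneys. In the test of transplanted against untransplanted kidney (225 genes rose, 493 fell), the counts were 413 and 860 by DESeq2's Wald test, 1124 and 1681 once genotype was a block, and 543 and 1035 with no filter. Leaving out 1 library gave 186 to 1051 and 392 to 1349, the highest without the transplanted CD39/CD55 library. In the test of genotypes (0 and 0, with 190 and 259 at an unadjusted p under 0.05), they were 12 and 5 by DESeq2's Wald test and 133 and 171 once state was a block, and 0 to 14 and 0 to 4 without 1 library. The cause of these shifts was not tested. Leaving out 1 library gave 12 to 20 list genes that rose and 15 to 36 that fell, against 14 and 17. Without at least 1 of the libraries C9, CP, F12, HP, ITIH1, F9, TF, RBP5 and RETSAT did not pass, with adjusted p up to 0.116, 0.189, 0.276, 0.105, 0.0567, 0.0565, 0.0823, 0.0563 and 0.0571 over the alternatives. No paired analysis was possible because the labels give no replicate numbers, which would tie kidneys to an animal or batch. The fits with a block match kidneys by genotype or state only. Counts below about 10 per library limit ALB, FABP1, APOB and the neighbours APOA5 and AFM.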

Other observations

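CEBPB, a regulator of acute phase genes in liver, had 0 counts in all 4 libraries, while its relative CEBPD had 3187, 3891, 2290 and 2875. SERPINA1, among the most abundant liver transcripts, was at 0 in all 4 as well, while other secreted inhibitors such as SERPING1 had 978, 2082, 709 and 1280 counts. By counting error alone, 0 counts allow up to 0.219 to 0.29 scaled CPM. Whether reads of CEBPB or SERPINA1 were missed in mapping or counting was not tested.

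LCN2, the injury-related lipocalin, had 42 untransplanted against 63 transplanted counts in CD39/CD55, and 19 against 255 in CD39/CD46/CD55/TBM (log2 fold change 2.69, edgeR quasi-likelihood adjusted p = 0.0517). These genes were chosen after their values were seen.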
